A study of Mus musculus with 6 samples.

Results

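The collagens, the matrix metalloproteinases (MMPs), their tissue inhibitors (TIMPs) and the lysyl oxidases were followed in the liver of mice given trichloroethylene (TCE), a chlorinated solvent. Members were taken by symbol: every probe that is not a control and whose gene symbol starts with Col, a number, a and a number, with Mmp or Timp and a number, or reads Lox or Loxl and a number. This rule matched 76 of the 24239 gene symbols on the array, through 112 probes, and 48 of the 76 genes had 1 probe. One match, Col4a3bp, is the ceramide transfer protein and not a collagen, and it differed by 0.27 on the log2 scale (limma adjusted p = 0.595). It is counted among the 76 but not among the classes below, which hold the other 75. The rule used no measured value. Male B6C3F1 mice 7 weeks old received TCE at 1000 mg/kg b.w. or corn oil alone by gavage, once a day for 5 days, and TCE was itself dissolved in corn oil. Liver RNA of 3 control mice and of 3 TCE mice was hybridised to 1-colour arrays, 1 per mouse. Each mouse is named here by its group and replicate number.

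Collagens are triple helices that cells secrete into the extracellular matrix. Fibrillar collagens such as types I and III form the fibres between cells, type VI forms beaded filaments beside them, and type IV forms the sheet of the basement membrane. Lysyl oxidases cross-link the chains, MMPs cut the matrix and TIMPs block the MMPs. In liver the interstitial collagens come mainly from hepatic stellate cells and portal fibroblasts, and they accumulate in fibrosis.

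The 6 arrays had between 23537 and 24965 probes well above background, no saturated spot, and correlations between mice of 0.971 to 0.990 over detected probes. The hepatocyte markers were detected in 8 of 9 cases, with albumin (Alb) at a log2 signal of 18.19 to 18.78 in the 6 mice, so the defining markers of the labelled tissue were present. The array of control mouse 1 was on another slide than the other 5. Values below are log2 signals after quantile normalization, differences are TCE minus control on that scale, and a gene is represented by its brightest detected probe. A probe was detected when it was well above background in all 3 mice of at least 1 group. A gene was called when its fold change was 2 or more and its limma p, adjusted by Benjamini-Hochberg over all detected probes, was at most 0.05.

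In these livers 33 of the 76 genes were detected. Among the fibrillar collagens these were 6 of 11, namely Col1a1, Col1a2, Col3a1, Col5a1, Col5a3 and Col27a1. The basement membrane collagens were detected in 6 of 8 cases (Col4a1, Col4a2, Col4a4, Col4a5, Col4a6 and Col18a1). Of the beaded filament and anchoring collagens 4 of 7 were detected, the type VI genes Col6a1, Col6a2 and Col6a3 and the anchoring fibril gene Col7a1. The fibril-associated collagens gave 4 of 9 (Col9a2, Col14a1, Col16a1 and Col20a1), and the network-forming and transmembrane collagens 0 of 8. Among the remodeling genes, 7 of 23 MMPs, 2 of 4 TIMPs and 3 of 5 lysyl oxidases were detected.

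**Figure D1:**
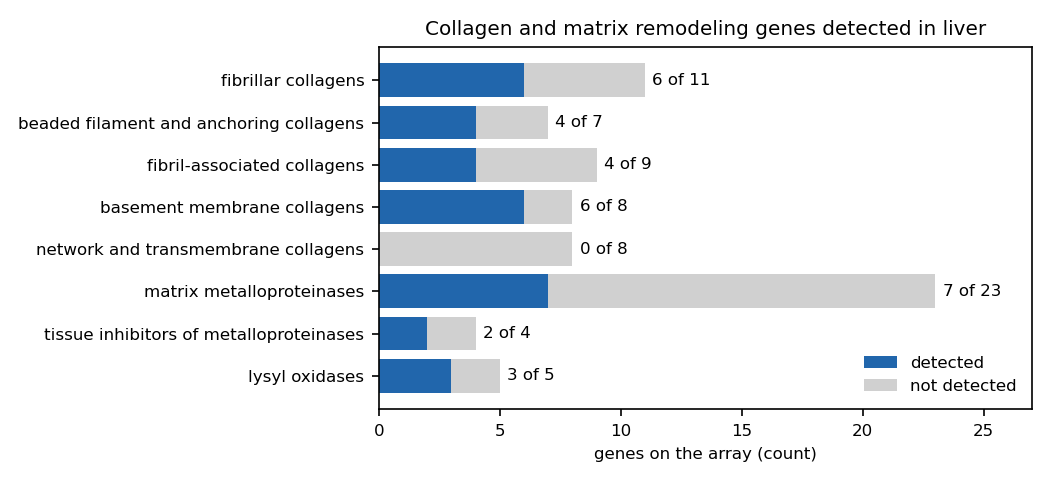
Number of collagen and matrix remodeling genes on the array (x axis, count) in each class, split into detected (blue) and not detected (grey). The basement membrane class had 6 of 8 genes detected, the MMPs 7 of 23 and the network and transmembrane collagens 0 of 8.

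The 43 genes that were not detected include several that are prominent in injured liver. Lox, the founding lysyl oxidase, Mmp9, the gelatinase of neutrophils, Col15a1 and Col5a2 stayed at background level in every mouse. In the cluster of MMP genes on chromosome 9, which lay between 7282762 and 7697700 in mm9, 0 of 10 genes passed, among them the collagenase genes Mmp13 and Mmp8 and the macrophage elastase gene Mmp12. Altogether 36 of the 43 genes were well above background in no mouse, and 7 were so in at least 1 mouse. Among these 7 was Timp1, which is induced in injured liver. Its signals were 4.47, 3.65 and 4.01 in the control mice and 5.12, 5.82 and 4.52 in the TCE mice. It was above background in 0 of 3 control mice and in 2 of 3 TCE mice, and the groups did not overlap. With the control mice set at the lowest signal that counted as above background, the TCE mean of Timp1 was 1.29-fold higher. That mean includes TCE mouse 3, itself not above background, so the value is not a lower bound. Timp1 did not enter the test. Mmp7, known as matrilysin, read 3.82, 3.41 and 5.87 in the control mice and 2.51, 2.56 and 2.48 in the TCE mice. It was above background in 1 of 3 control mice and in 0 of 3 TCE mice, and its groups did not overlap either, with the TCE mice lower.

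With limma, 0 of the 33 detected genes were called, against 1.73% of the 13284 detected genes on the array. By the methods' t-test the count was also 0, with adjustment and without it, and 2 members (Col18a1 and Mmp15) had an unadjusted p of 0.05 or less in it. At that level in limma, 1 member was higher in TCE mice (Mmp15), where 12.0% of all detected genes were, and 2 were lower (Col27a1 and Loxl1), where 7.11% were. Both shares of the members lie below or near the background. The groups did not overlap in 1 member that was higher, against 17.1% of all genes, and in 4 that were lower, against 10.8%. For 26 of the 33 genes the 95% confidence interval of the difference lay inside a 2-fold change in either direction. The other 7 intervals reached past a 2-fold change. The median log2 difference was 0.01 over the 20 detected collagens and -0.21 over the 12 detected remodeling genes, beside 0.02 over all detected genes. In this bulk tissue, fewer cells of a type and less RNA per cell cannot be told apart.

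**Figure D2:**
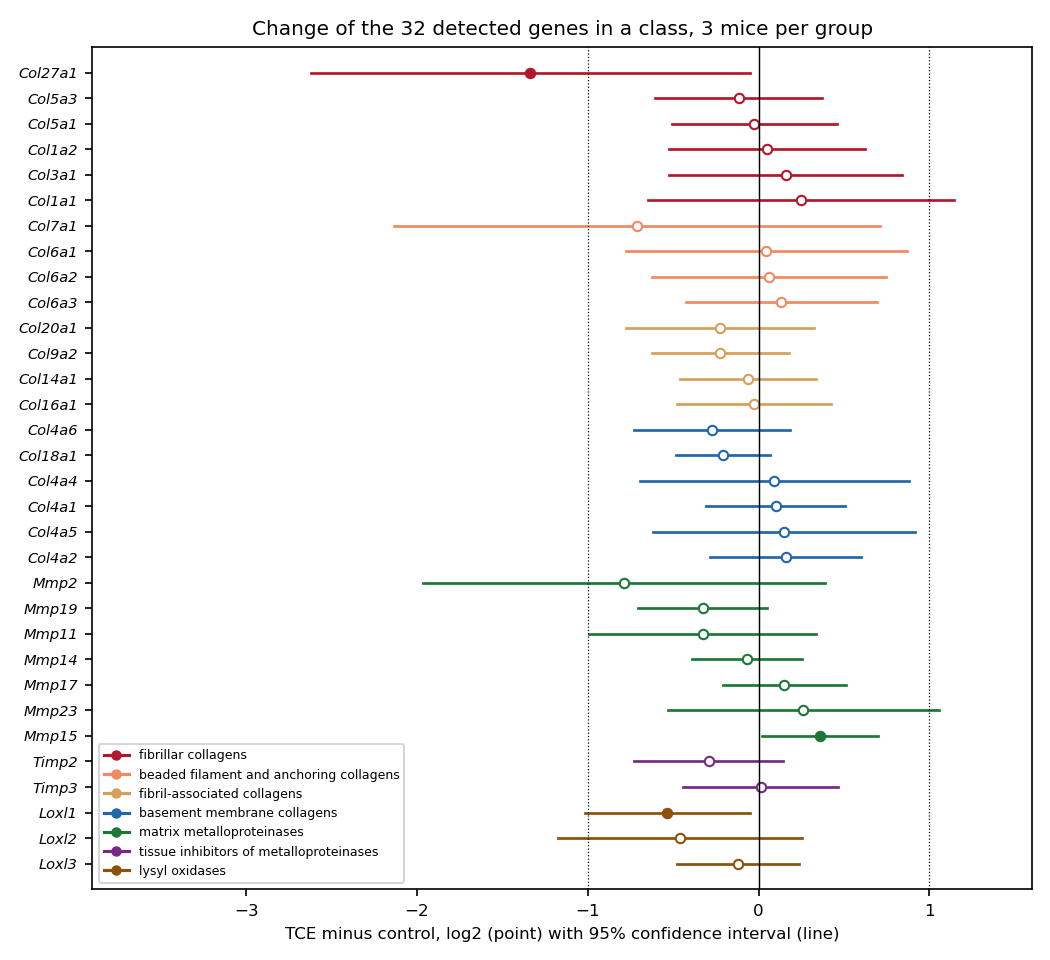
Difference between TCE and control (x axis, log2) of the 32 detected genes in a class, with 95% confidence intervals; colours mark the classes, filled points an unadjusted p of 0.05 or less and dotted lines a 2-fold change. Mmp15 sits to the right of 0 with its whole interval, Col27a1 and Loxl1 to the left, and the interval of every other gene crosses 0.

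Among the fibrillar collagens the median log2 difference was 0.01, with 3 genes above 0 and 3 below. Col1a1, which encodes the main chain of type I collagen, had signals of 8.81, 8.50 and 8.33 in the control mice and 8.91, 9.48 and 8.00 in the TCE mice. The TCE mice spanned the control mice on both sides, and the difference was 0.25 ± 0.37 (SE, limma adjusted p = 0.771). Col1a2, the partner chain, differed by 0.05 (95% confidence interval -0.52 to 0.62), and Col3a1, the chain of type III collagen, by 0.16 (-0.52 to 0.84). Without TCE mouse 2, all 3 of these differences were below 0. Col27a1, a collagen known from cartilage, had the largest change of the class. It measured 7.60, 7.29 and 8.13 in the control mice against 6.88, 7.03 and 5.11 in the TCE mice. All TCE mice were below all control mice, and the difference of -1.34 ± 0.53 (SE) had an unadjusted p of 0.0437 in limma and an adjusted p of 0.265. Without TCE mouse 3 it was -0.72.

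The mice of a group did not lie close together in the fibrillar collagens or in the beaded filament and anchoring collagens. TCE mouse 3 had the lowest signal of the 6 mice in 6 of 6 fibrillar collagens and in 4 of 4 beaded filament and anchoring collagens, but in 1 of 6 basement membrane collagens. Over all detected genes it was the lowest in 18.4%. It was also the lowest in 2 of 3 lysyl oxidases, in 3 of 7 MMPs and in 19 of all 33 members. TCE mouse 2 had the highest signal in 6 of the 10 fibrillar, beaded filament and anchoring collagens, beside 27.1% of all detected genes. Measured from each gene's mean over the 6 mice, the median fibrillar collagen stood at 0.21, 0.02 and -0.23 in the control mice and at 0.09, 0.31 and -0.46 in the TCE mice. For the basement membrane collagens the same medians were 0.28, 0.01 and -0.16 in the control mice and 0.03, 0.05 and -0.16 in the TCE mice. For the lysyl oxidases the median in TCE mouse 3 was -0.67. The spread between TCE mice was thus 0.40 (SD, n = 3) for the fibrillar and 0.12 for the basement membrane class, while the control mice had 0.22 in both. This order was noticed in the values and was given no test. Scaled to the 75th percentile, TCE mouse 3 was lowest in 5 of 6 fibrillar collagens, and with another background correction in 4 of 6. The counts were 4 of 4 for the type VI and VII genes and 1 of 6 for the basement membrane genes under both. By that scaling TCE mouse 2 was highest in 3 of 6 fibrillar collagens, 3 of 4 type VI and VII genes and 1 of 6 basement membrane genes. With that correction it was highest in 4 of 6, 2 of 4 and 0 of 6.

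**Figure D3:**
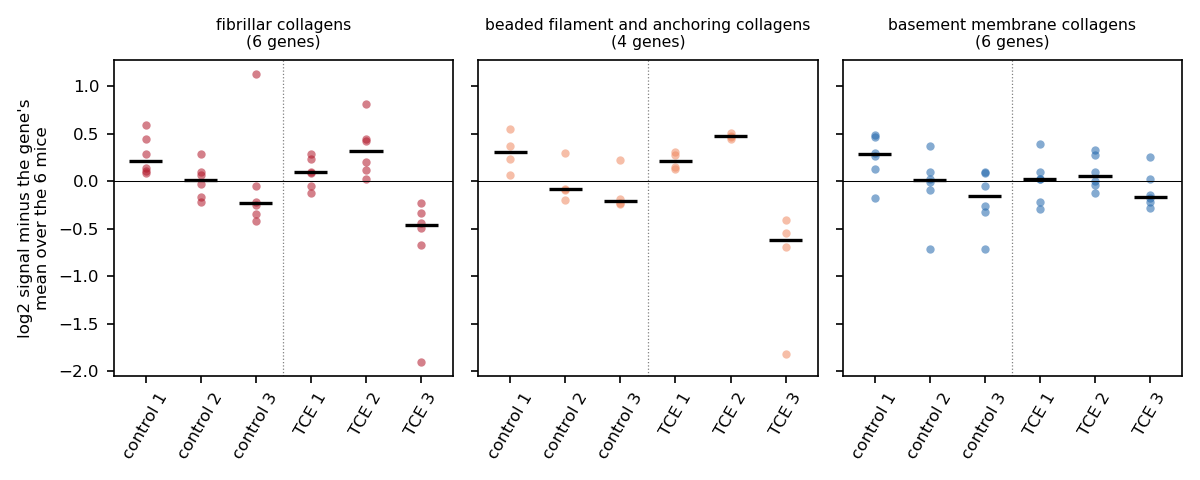
Signal of each detected collagen minus its mean over the 6 mice (y axis, log2) in each mouse (x axis), for the fibrillar, the beaded filament and anchoring and the basement membrane collagens; points are genes and bars are class medians. TCE mouse 3 lies at a median of -0.46 and -0.62 in the first and middle panels and at -0.16 in the basement membrane panel.

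In the type VI genes the pattern was close to uniform under the main processing. Col6a1 read 9.47, 8.90 and 8.85 in the control mice and 9.37, 9.58 and 8.40 in the TCE mice, Col6a2 and Col6a3 had the same highest and lowest mouse, and the differences were 0.04, 0.06 and 0.13. Col7a1 differed by -0.71 (95% confidence interval -2.14 to 0.71). This rested on TCE mouse 3, at 3.46 and not well above background, and without it the difference was 0.02.

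Other cell markers were set beside that order. The summed level of the hepatic stellate cell markers, of which 8 of 10 were detected (Des and Gfap were not), was 14.11 in TCE mouse 3 and 14.22 to 14.65 in the other mice on the log2 scale, with TCE mouse 3 the lowest in 5 of 8 markers. That sum is mostly Ecm1, at 14.00 to 14.52 in the 6 mice, while Lrat was lowest in TCE mouse 2, Hhip in control mouse 2 and Rgs5 in control mouse 3. The bile duct markers, 3 of 6 detected, summed to 8.48 in TCE mouse 3 and 8.73 to 9.17 elsewhere. For the portal fibroblast markers, 4 of 6 detected (Eln and Gli1 were not), the sum was 10.14 in TCE mouse 3 and lowest in TCE mouse 2, at 9.86, and TCE mouse 3 was the lowest in 1 of 4 markers. The smooth muscle and myofibroblast markers had 0 of 6 genes lowest in that mouse. TCE mouse 2 was the highest in 6 of the 10 fibrillar, beaded filament and anchoring collagens. It was the highest in 1 of 8 stellate cell markers and in 1 of 4 portal fibroblast markers. The part of these markers in the order of the collagens was not tested.

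Altogether 9 of the 33 members had TCE mouse 2 as the highest and TCE mouse 3 as the lowest mouse, against 5.86% of all detected genes: Col1a1, Col1a2, Col3a1, Col6a1, Col6a2, Col6a3, Col16a1, Mmp23 and Timp2. The order was read at the brightest probe of each gene and under the main processing only. At its second detected probe Timp2 was lowest in TCE mouse 1, at 7.60, beside 7.63 in TCE mouse 3. RefSeq promoter windows were held for 8 of the 9 genes. The 250 bases before the start site are shown for 4 whose windows hold at least 1 of the motifs named below. They display what lies upstream of members that shared this order of mice. Capitals mark 3 short motifs that were searched on both strands. The first is the CCAAT box, spelled by its name. The next is the GC box, which reads GGGCGG. The last is the TATA box in the form TATAAA. The windows are chr6:4505368-4505617 (plus strand, Col1a2), chr1:45311288-45311537 (plus, Col3a1), chr4:130047590-130047839 (plus, Col16a1) and chr11:118355412-118355661 (minus, Timp2), in GRCm38.p6.
Col1a2: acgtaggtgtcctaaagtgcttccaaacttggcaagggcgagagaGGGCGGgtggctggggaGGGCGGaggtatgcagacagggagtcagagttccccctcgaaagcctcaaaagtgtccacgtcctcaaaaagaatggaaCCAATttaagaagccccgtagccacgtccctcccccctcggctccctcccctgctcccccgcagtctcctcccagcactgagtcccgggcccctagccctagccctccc
Col3a1: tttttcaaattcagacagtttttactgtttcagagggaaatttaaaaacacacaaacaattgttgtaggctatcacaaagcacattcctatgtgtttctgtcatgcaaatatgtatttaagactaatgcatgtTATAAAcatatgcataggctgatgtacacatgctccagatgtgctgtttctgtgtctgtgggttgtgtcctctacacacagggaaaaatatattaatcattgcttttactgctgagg
Col16a1: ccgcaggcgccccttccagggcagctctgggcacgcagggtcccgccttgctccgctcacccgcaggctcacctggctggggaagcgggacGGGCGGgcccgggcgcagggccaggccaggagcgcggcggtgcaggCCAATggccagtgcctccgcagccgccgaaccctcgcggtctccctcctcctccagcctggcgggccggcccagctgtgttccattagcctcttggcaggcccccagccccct
Timp2: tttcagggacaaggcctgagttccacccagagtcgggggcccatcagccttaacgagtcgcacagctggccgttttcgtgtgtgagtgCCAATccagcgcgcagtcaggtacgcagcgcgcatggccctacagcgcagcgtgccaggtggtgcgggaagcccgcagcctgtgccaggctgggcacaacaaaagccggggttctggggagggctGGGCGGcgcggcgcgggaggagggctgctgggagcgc
Col1a2 has CCAAT starting 109 bases before the start site and GGGCGG at 205 and 188 bases before it. Col16a1 has CCAAT at 113 and GGGCGG at 159, Timp2 has them at 162 and 37, and Col3a1 has neither but holds TATAAA at 117. CCAAT was found in 3 of the 10 windows of these genes and in 33.8% of all 32851 promoter windows. GGGCGG was found in 5 of the 10 and in 32.7% of all, and TATAAA in 1 of the 10 and in 12.4%. Over the 27 windows of all detected members the shares were 37% for CCAAT, 66.7% for GGGCGG and 3.7% for TATAAA. A match describes the letters only.

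At their brightest probes the basement membrane collagens had a median log2 difference of 0.10, with 4 genes above 0 and 2 below. All 6 intervals at these probes lay inside a 2-fold change. Intervals at second detected probes reached past it for Col18a1 (-1.09 to -0.15) and Col4a4 (-1.12 to -0.13). Col4a1 and Col4a2, which together form the common type IV network, differed by 0.10 (95% confidence interval -0.31 to 0.51) and 0.16 (-0.28 to 0.60). Of the brightest probes, that of Col4a6 differed most, by -0.27 ± 0.19 (SE, limma adjusted p = 0.505).

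Col18a1 encodes type XVIII collagen, a heparan sulfate proteoglycan of vessel and sinusoid walls that hepatocytes also make and whose end is released as endostatin. Its brightest probe read 15.61, 15.58 and 15.58 in the control mice and 15.51, 15.36 and 15.27 in the TCE mice. Every TCE mouse was below every control mouse, by a small margin, and the difference was -0.21 ± 0.11 (SE, limma unadjusted p = 0.112, adjusted p = 0.397). A probe that starts 864 bases further downstream read 15.14, 15.12 and 14.93 in the control mice and 14.70, 14.59 and 14.05 in the TCE mice. There the groups were also apart, and the difference was -0.62 ± 0.20 (SE, limma unadjusted p = 0.0176, adjusted p = 0.179). The last 30 of the 60 bases of both Col18a1 probes are shown because they measured the same gene with differences of unequal size. Capitals mark the polyadenylation hexamer AATAAA. The upstream probe lay at chr10:76515790-76515849 and the downstream one at chr10:76514926-76514985, on the minus strand of mm9.
Col18a1, upstream probe: atgtaatcctcaagaAATAAAaggaagcca
Col18a1, downstream probe: aggcaccaAATAAAaatgacattttatacc
Both 60-base probes had a GC content of 35%, and both hold AATAAA. The unequal change was not tested further.

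Other genes with more than 1 detected probe also differed between them. For Col4a4, a type IV chain known from the kidney, 1 probe gave 0.09 and the other -0.63 (limma unadjusted p = 0.0210, adjusted p = 0.193), with 67684 bases between their starts. That other probe was dim: it was well above background in 2 of 3 TCE mice and read 4.53 in TCE mouse 3. With the probes of each gene averaged, the basement membrane class had a median of -0.08 in place of 0.10, which changes its sign.

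At their brightest probes the fibril-associated collagens were all slightly below 0, from -0.23 (Col20a1) to -0.03 (Col16a1), and their groups overlapped. Second detected probes gave 0.13 for Col14a1 and -0.32 for Col16a1, also with overlapping groups. Col14a1, which coats type I fibrils and marks liver fibroblasts, read 11.22, 10.84 and 10.85 in the control mice and 11.05, 10.99 and 10.69 in the TCE mice. Its difference of -0.06 (95% confidence interval -0.46 to 0.34) turned to 0.02 with scaling to the 75th percentile.

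Among the MMPs the median log2 difference was -0.07, with 3 of 7 genes above 0. Mmp15, a membrane-anchored MMP, read 8.28, 8.45 and 8.54 in the control mice and 8.98, 8.65 and 8.71 in the TCE mice. The groups did not overlap, and the difference was 0.36 ± 0.14 (SE), or 1.28-fold, with a limma unadjusted p of 0.0410 and an adjusted p of 0.257. Mmp19, a secreted MMP, went the other way, with 7.95, 8.42 and 8.10 in the control mice and 7.70, 7.87 and 7.92 in the TCE mice. Its groups were apart by a narrow margin, and the difference was -0.33 ± 0.16 (SE, limma unadjusted p = 0.0786, adjusted p = 0.341). Mmp2, the gelatinase of stellate cells and fibroblasts, had the largest difference of the class. It read 6.29, 5.91 and 5.68 in the control mice and 5.17, 6.18 and 4.17 in the TCE mice, with the lowest of these not above background. The difference of -0.79 ± 0.49 (SE, limma adjusted p = 0.457) was -1.29 without TCE mouse 2 and -0.29 without TCE mouse 3. Mmp14, the membrane MMP that activates Mmp2, differed by -0.07 (95% confidence interval -0.39 to 0.25). The other members of the class, Mmp11, Mmp17 and Mmp23, differed by -0.33, 0.15 and 0.26, each with overlapping groups.

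**Figure D4:**
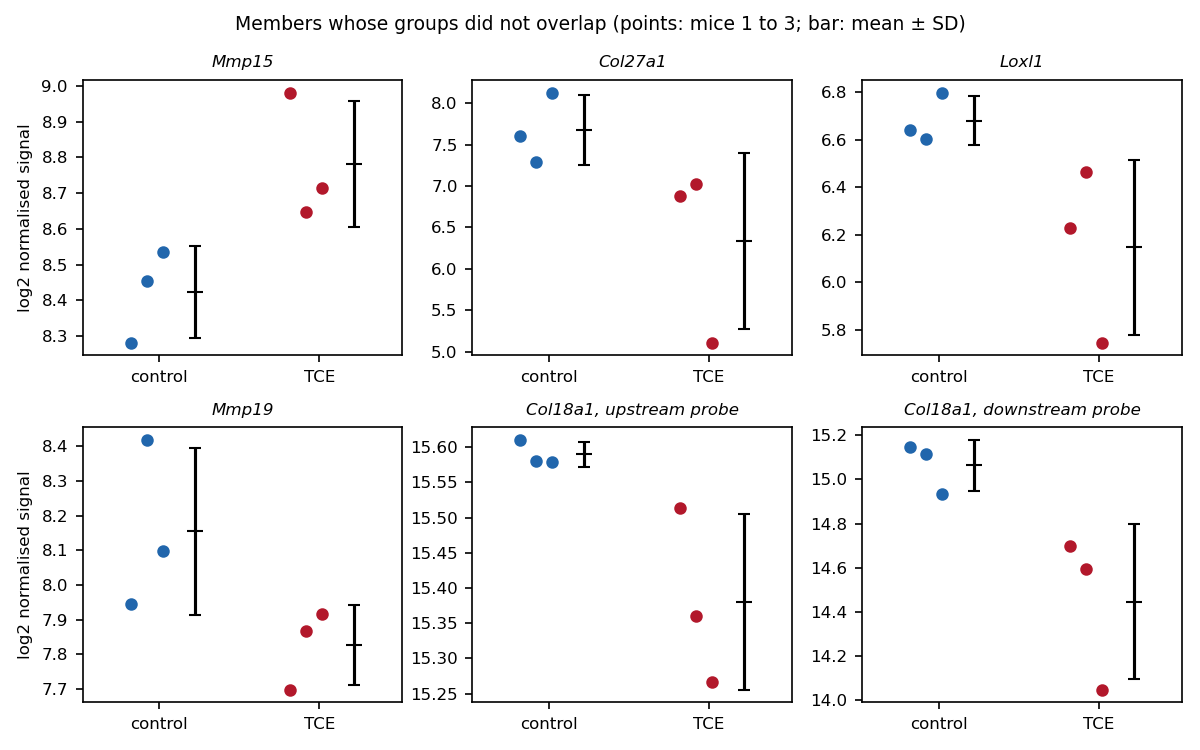
Log2 normalised signal (y axis, each panel on its own scale) of the detected members whose groups did not overlap at the brightest probe. Points are mice, with mean ± SD of 3 mice, and Col18a1 is shown for both probes. The TCE mice lie above the control mice for Mmp15 and below them for Col27a1, Loxl1, Mmp19 and Col18a1, and TCE mouse 3 is the lowest point for Col27a1, Loxl1 and Col18a1.

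Of the inhibitors, Timp2, which also takes part in Mmp2 activation, was read at its brightest probe. That probe gave 11.62, 11.64 and 11.61 in the control mice and 11.21, 11.70 and 11.07 in the TCE mice. The control mice lay within 0.02 (SD, n = 3), the TCE mice on both sides of them, and the difference was -0.29 ± 0.18 (SE, limma adjusted p = 0.455). It was -0.48 without TCE mouse 2 (limma unadjusted p = 0.00740) and -0.16 without TCE mouse 3. A second detected Timp2 probe differed by only -0.07 ± 0.18 (SE), and there the control mice had an SD of 0.11 (n = 3). Timp3, the matrix-bound inhibitor, differed by 0.01 (95% confidence interval -0.44 to 0.46).

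The lysyl oxidases were all below 0, with a median log2 difference of -0.46 over 3 genes. Loxl1, best known from elastic fibre assembly, read 6.64, 6.60 and 6.80 in the control mice and 6.23, 6.47 and 5.75 in the TCE mice. The groups did not overlap, and the difference was -0.53 ± 0.20 (SE), with a limma unadjusted p of 0.0345 and an adjusted p of 0.240. It was -0.33 without TCE mouse 3, and -0.25 with another background correction. Loxl2, which cross-links type IV and fibrillar collagen, differed by -0.46 ± 0.30 (SE, limma adjusted p = 0.470) at its brightest probe and by 0.01 ± 0.13 (SE) at a second probe. At the brightest probe it was -0.74 without TCE mouse 2 (limma unadjusted p = 0.0235) and -0.24 without TCE mouse 3. Loxl3 differed by -0.12 (95% confidence interval -0.48 to 0.24).

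Genes that act with the collagens were listed by role, and limma called 0 in each of the 6 lists. Of the 19 detected genes of collagen synthesis and processing, 0 were higher and 2 were lower at an unadjusted p of 0.05 or less. These were Plod1, a lysyl hydroxylase, at -0.56 ± 0.17 (SE, adjusted p = 0.167), and Ppib, the cyclophilin of procollagen folding, at -0.33 ± 0.12 (adjusted p = 0.221). Serpinh1, the collagen chaperone, differed by 0.03 (95% confidence interval -0.32 to 0.37). In this list TCE mouse 3 was the lowest in 11 of 19 genes. The non-collagen interstitial matrix had 0 of 14 detected genes at that level in either direction, and 5 of them (Fbln2, Fbln5, Fbn1, Fmod and Lum) had the same highest and lowest mouse as type I collagen.

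Of the 15 basement membrane partners, all detected, 1 was higher and 2 were lower at an unadjusted p of 0.05 or less. Lamb3, the beta chain of laminin-332, differed by 0.70 ± 0.16 (SE, limma adjusted p = 0.102), and Lama3, the alpha chain of that same laminin, by -0.77 ± 0.19 (SE, adjusted p = 0.109), or by -1.63 when its probes were averaged. The agrin gene Agrn differed by -0.61 ± 0.22 (SE, adjusted p = 0.225), and by 0.24 when its probes were averaged. In the control of metalloproteinases, with 7 of 10 genes detected, Bsg, an inducer of MMPs, differed by 0.39 (adjusted p = 0.253 in limma) and Reck, a membrane inhibitor of MMPs, by -0.84 (adjusted p = 0.269). For Reck the difference was -0.45 with the normexp background correction, -0.53 without control mouse 1 and -1.10 without control mouse 3, and its unadjusted p in limma was 0.0644 to 0.136 without control mouse 1, control mouse 2, TCE mouse 2 or TCE mouse 3. Among 4 detected collagen receptors 1 was higher, Itga10, at 0.61 (adjusted p = 0.275).

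In the list of TGF-beta and PDGF signalling, 0 of the 17 detected genes reported here were higher and 1 was lower at an unadjusted p of 0.05 or less. Smad2, which carries the TGF-beta signal, differed by -0.36 (limma adjusted p = 0.261). The ligand Tgfb2 read 5.23, 5.39 and 5.23 in the control mice and 5.77, 5.71 and 7.37 in the TCE mice. Every TCE mouse was above every control mouse, TCE mouse 3 by far the most, and the difference was 1.00 ± 0.44 (SE, limma unadjusted p = 0.0613, adjusted p = 0.305). The ligand Tgfb1 differed by 0.00 (95% confidence interval -0.32 to 0.33), and Ctgf, a target of the pathway, by 0.69 (-0.09 to 1.48) with overlapping groups.

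**Figure D5:**
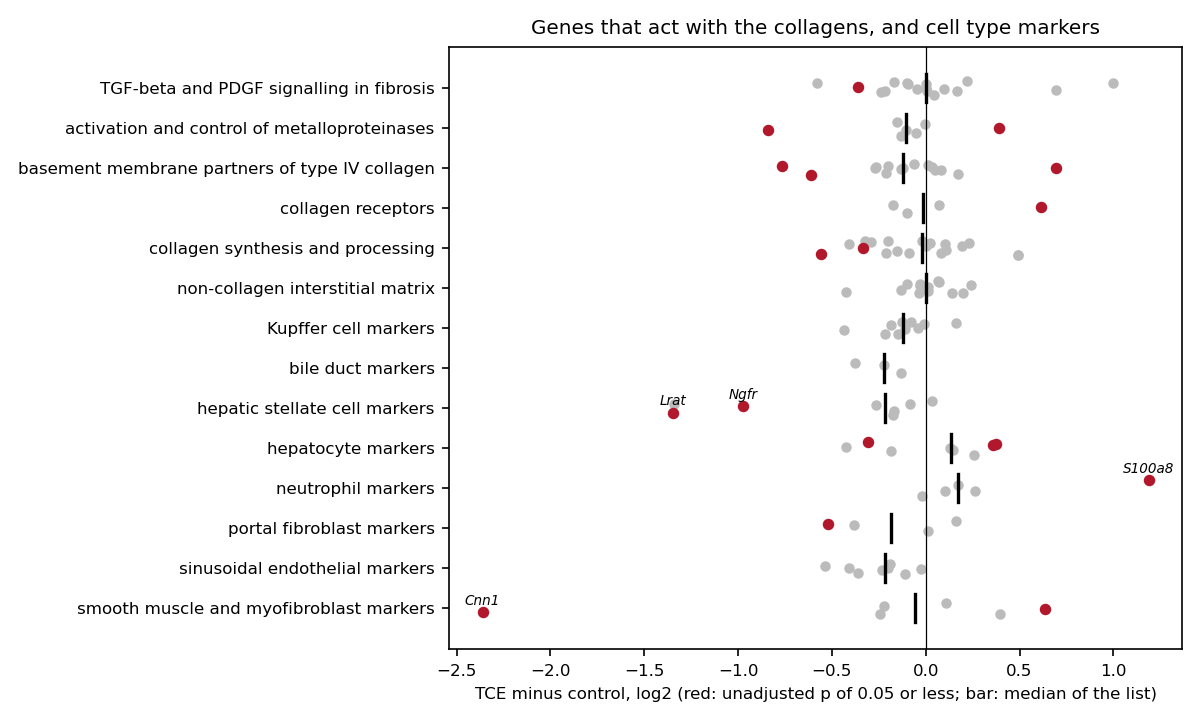
Difference between TCE and control (x axis, log2) of each detected gene in the lists of collagen partners and of cell type markers (y axis); red points have an unadjusted p of 0.05 or less and bars are list medians. S100a8 stands at 1.19, Lrat and Ngfr stand at -1.35 and -0.97, the point farthest to the left is Cnn1 at a fitted value set against signals not above background, and the medians lie between -0.22 and 0.17.

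Among the markers of the cells that make or border the matrix, limma called 0 in each of the 8 lists. The stellate cell markers had a median difference of -0.22, with 0 of 8 higher and 2 lower at an unadjusted p of 0.05 or less. Lrat, the enzyme that stores retinol in stellate cells, read 8.08, 8.56 and 7.85 in the control mice and 7.01, 6.35 and 7.09 in the TCE mice. The groups were far apart, and the difference was -1.35 ± 0.27 (SE, limma unadjusted p = 0.00186, adjusted p = 0.0676). The neurotrophin receptor gene Ngfr differed by -0.97 ± 0.20 (SE, adjusted p = 0.0738) with the groups also apart. Lrat passed the threshold with array weights (adjusted p = 0.0407 in limma) and with probes averaged (0.0465). Ngfr passed it with array weights (0.0304) and without TCE mouse 2 (0.0300). Over all settings run, the difference ranged from -1.50 to -0.93 for Lrat and from -1.18 to -0.80 for Ngfr. Both thus fell short of a 2-fold change in some settings. Ecm1, the brightest marker of the list, differed by -0.17 (95% confidence interval -0.53 to 0.18).

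Of the 6 detected smooth muscle and myofibroblast markers 1 was higher and 1 was lower. Tpm2 differed by 0.64 ± 0.13 (SE, limma adjusted p = 0.0740). Cnn1 was above background in 0 of 3 TCE mice. With these mice set at the lowest signal that counted as above background, Cnn1 was at least 1.71-fold (0.77 on the log2 scale) lower. The fitted adjusted p was 0.114 in limma, and 0.0291 without TCE mouse 3. With the normexp background correction its difference was -0.63, smaller than that bound, which therefore holds only for the main processing. The authors' qPCR did not show Cnn1 lower. Acta2, the defining gene of activated stellate cells, differed by -0.24 (95% confidence interval -0.90 to 0.42), and Tagln, the brightest of the list, by 0.40 (-0.20 to 0.99). In the portal fibroblast list, with 4 of 6 detected, Cd34 differed by -0.52 (adjusted p = 0.179) and Entpd2 by 0.16 (adjusted p = 0.624).

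The remaining lists held few such genes. Among 5 detected neutrophil markers S100a8 was higher, by 1.19 ± 0.26 (SE, limma adjusted p = 0.0886), and by 0.70 to 1.37 over all settings run. The others, S100a9, Camp, Elane and Ly6g, differed by 0.26, 0.17, 0.10 and -0.02, each with overlapping groups. For the Kupffer cells, 10 of 10 markers were detected and none passed an unadjusted p of 0.05, with Cd5l at -0.01. The sinusoidal endothelial list had 0 of 8 passing, with Clec4g at -0.20 and a summed level of 13.80 in TCE mouse 1 against 14.66 to 14.76 in the other mice. The bile duct list also had 0 of 3, with Spp1 at -0.22. Of 8 detected hepatocyte markers, Hpx and Tat were higher, by 0.38 and 0.36, and Apoa1 was lower, by 0.31 on the log2 scale, with adjusted p values of 0.163, 0.255 and 0.215 in limma. Scaled to the 75th percentile, Hpx differed by 0.20 with an unadjusted p of 0.187.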

How the data were processed

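Liver RNA of 6 mice was measured, 1 array per mouse, so the p-values rest on the spread between these mice. The number of arrays limits the precision. In limma the variance of each probe was also moderated by the spread over all tested probes. The authors scanned the arrays with Feature Extraction 10.7.1.1, and deposited its background-subtracted intensity values and its flags for each spot. The authors also deposited group means of intensity and of quantile-normalized log2 values, with flags and GO terms. From the latter, gene symbols and mm9 positions were taken, and no comparison columns were used. The columns of the other kind, 0 or 1 flags, are deposited as the scanner software gave them.

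Control spots and outlier spots were left out, log2 of the processed intensity was taken without a pseudocount, repeated spots were averaged by probe and the arrays were quantile normalized. Of the resulting group means 99.98% lay within 0.01 of the deposited ones. Of 55681 probes, 22731 were detected. The test was limma 3.58.1 under R 4.3.3 (two-sided, no factor but the group, and with statmod 1.5.0 and version 1.17.8 of data.table), and the test was checked on simulated data. An exact permutation test of 3 against 3 mice cannot go below p = 0.1 and was not used. Outside the members, genes came from hand-written lists, and 1 gene of the TGF-beta and PDGF list is not reported here. The members and lists were chosen with earlier results of these data known.

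The genes named are each detected member at an unadjusted p of 0.05 or less, a fixed set of 21 familiar collagens, MMPs, TIMPs and lysyl oxidases, the largest change of each class, and up to 3 genes per list at an unadjusted p of 0.05 or less, with the brightest gene of each marker list. Others (among them Col18a1 probes, Col4a4, Loxl3, Col6a2, Col6a3, Mmp7, Tgfb1, Tgfb2, Ctgf, Serpinh1 and Acta2) were added with their values in view. Alternatives were another scaling (75th percentile), normexp with an offset of 50, other filters, flagged spots retained, the replicate number or the slide as a block, array weights, the methods' t-test, averaged probes and each mouse left out. RefSeq promoters (GRCm38.p6) cover 250 bases before and 50 after the start.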

Additional observations from a re-analysis of the deposited data

How the results depend on the processing

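The count of members called stayed at 0 under all 17 alternatives run, some of which left few calls on the whole array: of 13284 genes 230 were called as reported, 58 with no filter on dim probes, 45 with the replicate block and 20 by the methods' t-test with adjustment, against 411 by that test without adjustment. The count at an unadjusted p of 0.05 or less was 3 and moved to 6 with no filter on dim probes (there Col12a1, Loxl4, Timp1 and Mmp7, all too dim for the main test, joined Mmp15 and Loxl1), to 6 with array weights, to 1 with slide as a block and to 1 with the replicate block. Leaving out 1 mouse at a time gave 0 to 6 for it, with 0 without control mouse 2, 1 without control mouse 1 and 6 without TCE mouse 2. Replicate numbers were not taken as pairs. Deviations of same-numbered mice correlated at 0.06, -0.01 and -0.06, and those of other mice at -0.06 to 0.07. With 3 mice per group this cannot settle whether the mice were paired. As 0 members were called to begin with, the block of replicate numbers could not remove a call among them, and it added 0.

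The median difference of the MMPs was 0.15 where all 6 arrays had to be above background, which kept 5 of 7 genes, and -0.17 to 0.00 with a mouse left out. The basement membrane median was -0.084 with probes averaged and -0.11 to 0.18 with a mouse left out, the lowest without control mouse 3. The fibrillar median was -0.14 to 0.21 with a mouse left out.

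Signs turned in the genes that follow. With the 75th percentile Cd5l was 0.042 and Col14a1 0.016, and with normexp Cd5l was 0.040. With slide as a block, which equals leaving out control mouse 1, Cd5l was 0.047, Col14a1 0.064 and Elane -0.14. With array weights Cd5l was 0.024, Col14a1 0.0029, Col1a2 -0.011 and Elane -0.0058, and with probes averaged Agrn was 0.24 and Col14a1 0.032. With a mouse left out the ranges were -0.22 to 0.23 for Cd5l, -0.13 to 0.064 for Col14a1, -0.14 to 0.22 for Elane, -0.19 to 0.40 for Col6a1, -0.14 to 0.20 for Timp3, -0.15 to 0.28 for Col1a2, -0.026 to 0.44 for Col3a1, -0.040 to 0.26 for Col4a1, -0.48 to 0.21 for Clec4g, -0.093 to 0.65 for Col1a1 and -1.11 to 0.018 for Col7a1. The causes were not tested.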
